A study of Mus musculus with 9 samples.

Results

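Differences between mouse embryos with 1 floxed and 1 deleted allele of beta-catenin (gene Ctnnb1) and embryos with 1 wild-type and 1 floxed allele are described here, gene by gene. The embryos were gastrulating, at embryonic day 7.5 (E7.5). A floxed allele carries recombinase sites around part of the gene and is held to be functional until Cre recombinase removes that part. The embryos with the deleted allele therefore have, by their label, 1 allele able to make the protein, and the others have both alleles. A gene was included if at least 2 of its probe sets were eligible, meaning that they carried a single gene symbol and gave a signal above the pooled median of their array design in both pools. This left 2477 of the 15965 genes with a single-symbol probe set on the arrays. Another 6407 genes had only 1 eligible probe set and could not be cross-checked. A gene was said to agree when at least 2 eligible probe sets differed by 1.5-fold or more in the same direction and none differed by as much in the other.

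Each genotype was 1 pool of whole embryos, and its total RNA was read on 1 array of each of 3 one-colour Affymetrix designs, called A, B and C (murine genome U74 version 2). The comparison uses 6 of the 9 arrays. The remaining 3 arrays hold a pool of about 50 embryos in which Cre expressed from the cytokeratin 19 promoter removed beta-catenin, a conditional knockout in the cells that use this promoter. That pool is cited only where its value helps to place the others. The labels give neither the number of embryos in the floxed/deleted and wild-type/floxed pools nor whether either carried Cre. The designs hold different probe sets, so the 3 arrays of a pool are not replicates, and probe sets of 1 gene read the same pool. With 1 pool a side there was no replicate error, no test was possible and no p-value is given. The spread between probe sets of a gene is used as the yardstick instead. In pooled embryos, fewer cells of a type and less RNA per cell cannot be told apart.

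Beta-catenin has a pair of roles. It joins cadherins to the actin cytoskeleton through alpha-catenin at adherens junctions, and it carries the canonical Wnt signal into the nucleus, where it binds Tcf/Lef factors and activates genes such as Axin2, Sp5 and Lef1. In the gastrulating mouse embryo it is required for the anterior-posterior axis, the primitive streak and mesoderm. The heterozygous state is commonly used as a control, and the comparison shows how far apart the 2 control pools of the study lay.

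The targeted gene was read by a single probe set, on design A. Its signal was 1509 for floxed/deleted, 1773 for wild type/floxed and 1376 for the knockout. The floxed/deleted pool was thus 1.17-fold lower than the wild-type/floxed pool, a log2 difference of -0.23. This difference is smaller than the standard deviation of 0.40 over all eligible probe sets of design A, but that value includes dim probe sets, which varied more. Both Ctnnb1 signals lay above 864, the median signal of the brightest quintile of design A. The standard deviation in that quintile was 0.235, about the size of the Ctnnb1 difference of -0.232. The Ctnnb1 difference lay below 1.5-fold in every one of the 10 alternative settings that kept its array. The sources used here do not say which part of the gene was deleted or where the probe set lies, so the value does not check the genotype. Krt19, the keratin whose promoter drove Cre in the knockout, had signals of 97.6, 119 and 232 in the floxed/deleted, wild-type/floxed and knockout pools, and its other probe set was below the pooled median.

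The pools carried the markers of the labelled stage. Pou5f1, a pluripotency factor of the epiblast, had a signal of 1203 where 1 allele was deleted and 1107 where it was not. Mesp1, a factor of nascent mesoderm, had 427 and 310. Ttr, a carrier protein secreted by visceral endoderm, had 451 and 465. Alpha-fetoprotein (Afp) and the embryonic globins Hbb-y and Hba-x were below the pooled median in both pools. Pooled medians were 57.3 on design A, 90.0 on B and 80.9 on C. The ratio of the 5′ to the 3′ Actb control, which falls when RNA is degraded, was between 0.655 and 0.698 over the 3 designs for floxed/deleted and between 0.681 and 0.730 for wild type/floxed.

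Single probe sets differed often, and about as many in each direction. Of 12308 eligible probe sets, 1437 were at least 1.5-fold higher in the floxed/deleted pool, which is 11.7%, and 1456 were at least 1.5-fold lower, which is 11.8%. The share was larger on design C than on A. It was 7.04% higher and 6.66% lower on A, 11.4% and 12.6% on B, and 20.1% and 19.5% on C. The Spearman correlation between the pools over probe sets was 0.871 on A, 0.740 on B and only 0.578 on design C, as a description of arrays that share no probe sets. Differences were also rarer among bright probe sets. In the brightest quintile of each design, 1.81% of probe sets on A, 9.17% on B and 19.6% on C passed 1.5-fold in either direction. In the next-to-dimmest quintile the shares were 24.2%, 35.8% and 53.3%. The dimmest quintile lay below that on each design. Both pools had to lie above the pooled median, which bounds a difference near it. The same filter leaves out any gene that is on in one pool and near the bottom of the scale in the other.

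**Figure D1:**
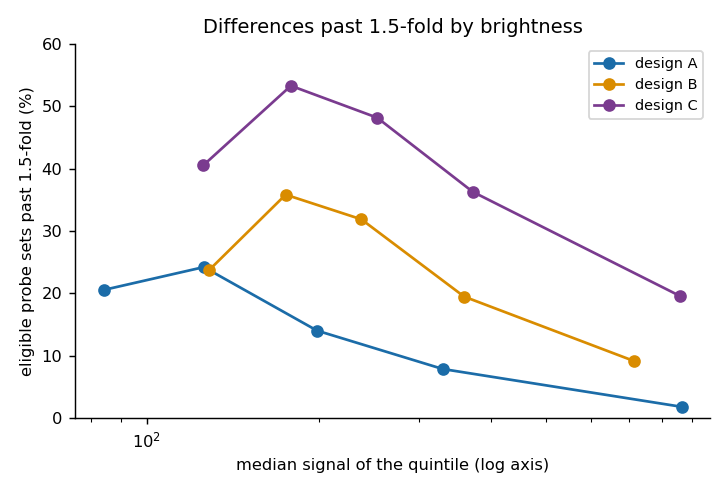
Percent of eligible probe sets that differed by at least 1.5-fold in either direction (vertical axis) against the median signal of each brightness quintile (horizontal axis, log scale), 1 line per design. The share is lowest in the brightest quintile of each design, at 1.81% on A, 9.17% on B and 19.6% on C, and highest in the next-to-dimmest quintile.

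The difference shown by 1 probe set of a gene said almost nothing of the difference shown by another. Among 1794 genes with exactly 2 eligible probe sets, the correlation of their log2 differences was -0.01, given as a description over genes, which share the same pools. Both probe sets were at least 1.5-fold higher for 24 genes and lower for 26, while 60 genes had 1 probe set past 1.5-fold in each direction. The signs matched for 886 genes, or 49.4%. Restricting the pairs to probe sets on 2 different designs (1010 genes) gave a correlation of -0.02, and to the same design (784 genes) -0.0034. Pairs in which even the dimmer probe set had a signal above 162 gave -0.06, with 17 genes past 1.5-fold the same way and 31 opposite ways. The remaining pairs gave 0.04, with 33 and 29. Over all 2477 genes, the standard deviation between probe sets of a gene was 0.56 on the log2 scale, equal to 2 decimals to that of all eligible probe sets. Under 11 other settings for scaling, brightness and designs, the correlation stayed between -0.04 and 0.0037.

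**Figure D2:**
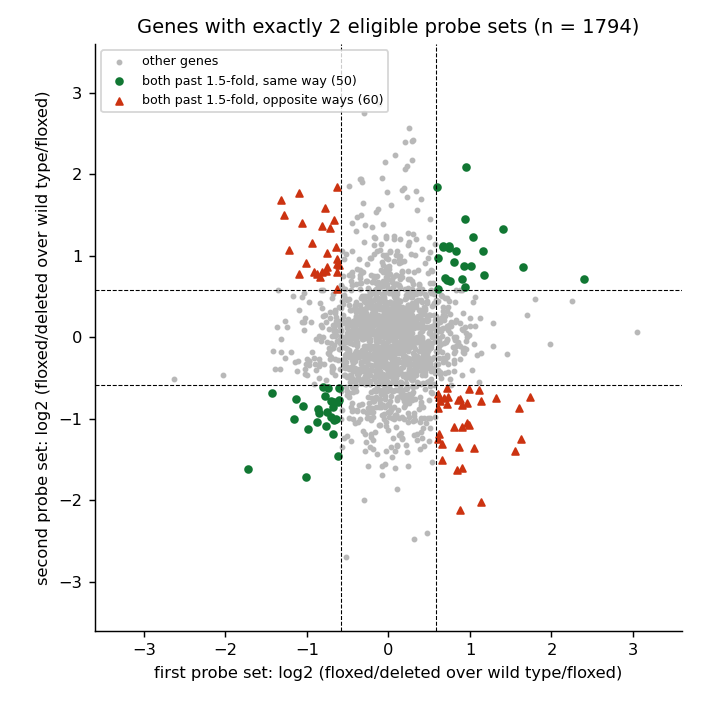
Log2 difference, floxed/deleted over wild type/floxed, of the first (horizontal axis) and second (vertical axis) probe set of each of the 1794 genes with exactly 2 eligible probe sets. Dashed lines mark 1.5-fold; 50 genes lie past it the same way (green) and 60 opposite ways (red triangles), and the cloud has no slope.

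The same measure is available for the contrasts with the knockout pool, which share their control arrays with this one, so the values are only set side by side. For the knockout against the wild-type/floxed pool, the correlation over 1806 genes was 0.03, with 56 genes past 1.5-fold the same way and 53 opposite ways. For the knockout against the floxed/deleted pool it was 0.09 over 1838 genes, with 80 and 41.

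Of the 2477 genes, 50 agreed higher in the floxed/deleted pool, which is 2.02%, and 60 agreed lower, which is 2.42%. With the arrays scaled to equal medians instead, 40 agreed higher and 76 lower. A further 136 genes, or 5.49%, had probe sets past 1.5-fold in both directions. In 884 genes exactly 1 probe set passed 1.5-fold, and in 1347 none did. Genes split between directions thus outnumbered the 110 that agreed. A split needed only 1 probe set past 1.5-fold in each direction, so the rules are alike only for genes with exactly 2 eligible probe sets. Among those, 60 were split and 50 agreed. Every eligible probe set passed 1.5-fold in 26 of the genes higher and 27 of those lower, and the agreeing probe sets lay on 2 or more designs in 32 and 31. Of these genes, 7 higher and 2 lower agreed at 2-fold. Of the genes higher, 11 had another eligible probe set that leaned the other way, and of those lower, 19 did. The agreeing genes had 46 dimmer probe sets in each direction that the brightness filter left out, and 21 of those for genes higher and 20 of those for genes lower had the opposite sign to the agreed difference. Design C supplied 48.6% of the agreeing probe sets of genes higher and 42.3% of those lower, against 23.4% of all eligible probe sets. Their median signal was 175 for genes higher and 194 for genes lower, against 227 over all eligible probe sets. Agreeing probe sets passed 1.5-fold by definition, and probe sets of design C passed it more often and the brightest ones less often. All eligible probe sets are therefore not a like background for these shares and signals. The part of design and brightness in the agreed differences was not tested.

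The gene with the largest agreed difference was Gstm1, a mu-class glutathione S-transferase that conjugates reactive compounds. The agreed difference is the second-largest difference in the shared direction, so that at least 2 probe sets reach it. Of 5 eligible Gstm1 probe sets, 4 were past 1.5-fold. On design C their signals in the floxed/deleted and wild-type/floxed pools were 353 and 82.6, 390 and 190, and 503 and 103. On design A they were 168 and 109, and 730 and 619. All 5 were higher in the floxed/deleted pool and the agreed difference was 4.28-fold, but the brightest, on design A, was the least changed. The knockout pool lay at 74.2, 509 and 307 on design C and at 120 and 1080 on design A, above the floxed/deleted pool for 2 of the 5. Without design C, or with the brightness filter at the 70th percentile, the gene no longer agreed. Related genes, looked up after these values were seen, did not share the pattern on all their probe sets. Gstm2 had 251 and 108 on design C but 119 and 122 on design A, Gstm5 had 137 and 86.9 on design C but 838 and 910 and 132 and 122 on design A, Gstm3 had 198 and 218, and Gstm4 had 163 and 235. Probe sets of such near-identical genes can hybridise to each other's transcripts, so the Gstm1 values are uncertain in that respect.

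Uqcc1, Smyd5, Aopep and a clone-named gene also had at least 3 agreeing probe sets, all higher. Uqcc1 helps to assemble complex III of the respiratory chain. All 4 of its probe sets were past 1.5-fold, at 244 against 155 on design A and 250 against 109, 183 against 122 and 256 against 160 on design B. The knockout pool had 152, 81.9, 130 and 275, so it lay with the wild-type/floxed pool or below it on 3 of the 4. Smyd5, a SET-domain methyltransferase, had 3 of 4 past 1.5-fold, at 136 against 71.8, 148 against 95.6 and, on design C, 296 against 110. Its remaining set was at 477 against 413. Aopep, an aminopeptidase, agreed on 3 designs, at 226 against 124 on A, 152 against 92.1 on B and 213 against 134 on C, and its remaining eligible set was at 322 against 268. No eligible probe set of Uqcc1, Smyd5 or Aopep pointed down. Each of the 3 no longer agreed when the brightness filter was raised to the 70th percentile. Uqcc1 also lost its call without design B, and Smyd5 without design A.

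The remaining genes with the largest agreed differences upwards had varied functions. Ap5s1, a subunit of an adaptor complex of late endosomes, was at 166 against 62.3 on design A and 406 against 162 on design C. Sfswap, a regulator of splicing, had 1184 against 532 on design B and 407 against 167 on design C, with another probe set at 154 against 148. Mkrn1, a ubiquitin ligase, had 169 against 79.0 on design A and 523 against 147 on design C. Its brightest probe set on design A pointed the other way, at 360 against 422, and its mean reversed to -0.23 above the 70th percentile. Trex2, a DNA exonuclease, had 676 against 302 and 252 against 121, both on design C. Prps1l3, a relative of phosphoribosyl pyrophosphate synthetase, had 240 against 101 and 347 against 102 on design C and 190 against 147 on A. Pvalb, the calcium-binding protein parvalbumin, had 426 against 207 on design A and 2618 against 1119 on design C, and the knockout pool, at 424 and 2306, lay beside the floxed/deleted pool on both. Oga, which removes N-acetylglucosamine from proteins, had 190 against 98.4 and 468 against 110. Dysf, a membrane repair protein, Lnpk, a protein of endoplasmic reticulum junctions, and Agpat1, an enzyme of phosphatidic acid synthesis, agreed at 1.91-fold, 1.84-fold and 1.84-fold. Prdm2, a zinc-finger methyltransferase, agreed at 1.93-fold on 1 set each of designs B and C, while its other C set was at 273 against 371.

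Genes that agreed lower were led by Tmem163, a zinc-binding membrane protein of vesicles. Its 2 eligible probe sets, both on design B, were at 90.3 against 298 and 92.5 against 284, an agreed difference of 3.07-fold, the largest in this direction. The knockout pool, at 43.2 and 93.2, was also low. The floxed/deleted values lay just above the pooled median of 90.0, and Tmem163 lost its call with a filter at the 30th percentile and with a pooled median from the 2 pools only. Polr3f, a subunit of RNA polymerase III, had all 3 eligible probe sets past 1.5-fold, at 99.0 against 185, 151 against 300 and 93.0 against 215 on design B. It kept its call in all 9 alternative settings in which 2 of its probe sets could be read. Clcn3, a chloride-proton exchanger of endosomes, had 3 of 4 on design A, at 145 against 277, 68.6 against 111 and 77.2 against 166, with the remaining set at 124 against 110. Zfp692, a zinc-finger protein, had 150 against 506 on design B and 467 against 789 and 514 against 824 on design C. Another Zfp692 set, on design A, was level at 158 against 159.

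The remaining genes with the largest agreed differences downwards were also of varied function. Sh3pxd2a, a scaffold of podosomes, had 121 against 246 on design B and 157 against 518 on design C. Snupn, which brings small nuclear ribonucleoproteins into the nucleus, had 93.8 against 209 and 245 against 490. Napg, a protein of SNARE recycling, had 162 against 322 and 131 against 285 on design B, and kept its call in all 9 settings that gave a value. Leaving out design A or C could not change that call, and without design B the gene could not be read. Git2, a regulator of Arf proteins, had 193 against 350 and 171 against 325. Cab39l, a partner of the kinase Lkb1, had 76.0 against 140 and 100 against 207. Dact3, which binds Dishevelled and restrains Wnt signalling, had 305 against 574 and 122 against 420 on design C but 148 against 105 on design B, and its mean reversed to 0.49 without design C. Prkag2, a regulatory subunit of the AMP-activated kinase, had 466 against 895 and 96.3 against 214, with another set at 396 against 266, just short of 1.5-fold the other way. It was called in only 4 of 11 alternative settings. Akap1, a mitochondrial anchor of protein kinase A, was likewise called in 4 of 10, and Bfar, a ubiquitin ligase of the endoplasmic reticulum, had 2 sets low and 2 high. Means of these last 2 genes reversed above the 70th percentile, to 0.31 and 0.38. Colec12, a scavenger receptor, and Dennd5b, an activator of Rab proteins, agreed at 1.80-fold and 1.82-fold.

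**Figure D3:**
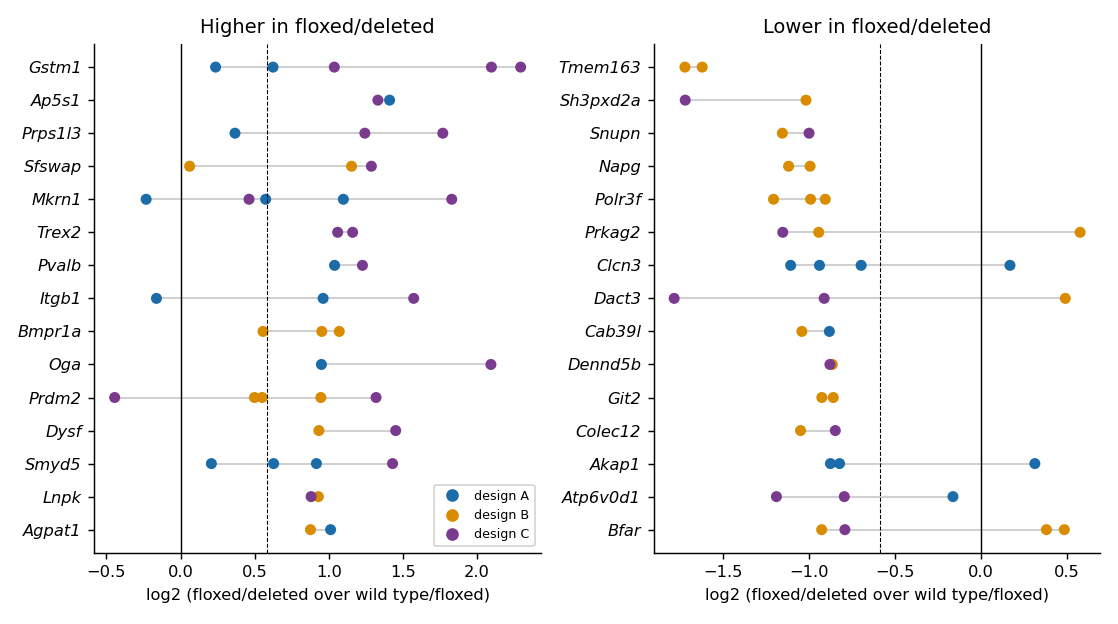
Log2 difference, floxed/deleted over wild type/floxed, of every eligible probe set of the 15 genes with the largest agreed difference in each direction; colours mark the array design, the dashed line 1.5-fold and grey lines join the probe sets of a gene. The left panel holds genes higher and the right panel genes lower; in Mkrn1, Itgb1, Prdm2, Prkag2, Clcn3, Dact3, Akap1 and Bfar at least 1 probe set lies on the other side of 0.

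Promoters are shown for 1 gene of each direction, because a core of Tcf/Lef binding sites, through which beta-catenin acts, occurs in them. The core searched was CTTTGAT, on both strands (ATCAAAG on the other), in the 250 bases before and 50 bases after each start in RefSeq's GRCm38.p6 annotation. It was present in 4 of 44 promoters of genes that agreed higher (9.09%), in 3 of 50 of those lower (6%), in 6 of 108 of split genes (5.56%) and in 214 of 7183 of all eligible genes (2.98%). The share over all eligible genes includes genes with 1 eligible probe set, which could neither agree nor split. It is therefore not a like background, and the share over genes with at least 2 eligible probe sets was not computed. These counts are small, and a match is a description and not a binding site. The genes with the core, named for it after their values were seen, were Mkrn1, Dclk1, Zfp827 and a clone-named gene among those higher and Clcn3, Bfar and Tram1l1 among those lower. The Mkrn1 promoter lies at chr6:39420320-39420619 and that of Clcn3 at chr8:60954750-60955049, both on the minus strand. The core is in capitals.
Mkrn1: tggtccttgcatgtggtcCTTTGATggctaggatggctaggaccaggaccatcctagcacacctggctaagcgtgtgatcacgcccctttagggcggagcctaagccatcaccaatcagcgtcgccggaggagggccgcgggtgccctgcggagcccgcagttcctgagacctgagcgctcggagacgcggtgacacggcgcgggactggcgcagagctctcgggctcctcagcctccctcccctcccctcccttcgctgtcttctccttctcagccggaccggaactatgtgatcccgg
Clcn3: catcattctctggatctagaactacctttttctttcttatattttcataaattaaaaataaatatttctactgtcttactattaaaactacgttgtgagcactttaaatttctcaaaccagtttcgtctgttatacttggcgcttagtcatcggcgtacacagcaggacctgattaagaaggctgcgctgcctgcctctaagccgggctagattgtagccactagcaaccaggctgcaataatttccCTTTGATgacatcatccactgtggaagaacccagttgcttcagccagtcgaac

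Among developmental genes, BMP and FGF receptors and an endoderm factor agreed. Bmpr1a, a type I receptor for bone morphogenetic proteins that is needed for mesoderm formation, was higher on 3 of 3 eligible probe sets of design B, at 215 against 111, 397 against 189 and 168 against 114. The first 2 of these passed 1.5-fold. Its dimmer probe sets on designs A and C were also higher, at 77.7 against 49.9 and 56.1 against 18.2, and the knockout pool lay between the others at 169, 299 and 134. Gata4, a transcription factor of extraembryonic endoderm and heart, was lower on both of its probe sets, at 94.5 against 154 on design A and 142 against 244 on design B, while the knockout pool had 106 and 310. Fgfr2, a receptor for fibroblast growth factors, was lower at 75.6 against 171 on design A and 82.7 against 134 on C, but its brightest set was at 306 against 364. Its call was lost in 7 of 11 alternative settings, and its mean reversed to 0.15 with a filter at the 30th percentile, which admitted a design C set at 154 against 39.1. Hoxb4, a Hox gene of the posterior embryo, was higher at 381 against 235 and 170 against 103 on design C. Another design C set, below the median in the floxed/deleted pool, was at 72.5 against 242, and with it the mean reversed to -0.11. Itgb1, the common beta subunit of many integrins, had 203 against 104 and 607 against 204 but 650 against 728 on its brightest set.

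**Figure D4:**
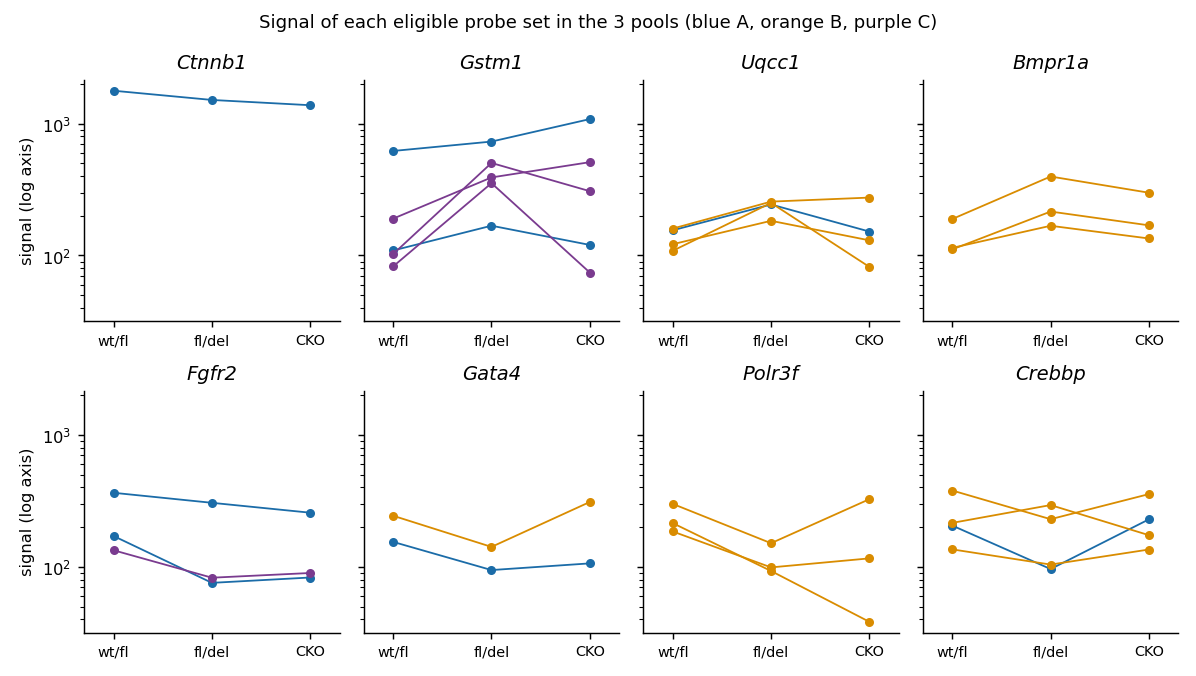
Signal (log axis) of each eligible probe set of 8 genes in the wild-type/floxed (wt/fl), floxed/deleted (fl/del) and conditional knockout (CKO) pools, with lines joining the values of a probe set and colours marking the design. Ctnnb1 has 1 probe set, at 1773, 1509 and 1376; Gstm1, Uqcc1 and Bmpr1a peak in the floxed/deleted pool on most probe sets, and Gata4 and Polr3f are lower there than in the wild-type/floxed pool on every eligible probe set.

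Other agreeing genes that belonged to a gene list were of general function. Higher were Atp6v1b2, a subunit of the vacuolar proton pump, Myl12a, a myosin light chain, Rhoa, the small GTPase of actin contraction, Plod1, a collagen-modifying hydroxylase, and Bcl2l11, the cell death activator Bim. Rhoa had 108 against 66.2 and 722 against 240 on design A, and its other set was at 532 against 604. Plod1 had 730 against 153 and 270 against 171 on design C, but was level at 336 against 331 on design B. A dimmer Plod1 set on design B was higher, at 73.6 against 55.5. Its dimmer sets on design C were 7.35-fold and 13.0-fold lower in the floxed/deleted pool. The Plod1 call was lost without design C and above the 70th percentile. Atp6v0d1, another subunit of the proton pump, was lower at 439 against 1000 and 145 against 252 on design C. On design A it was at 215 against 241. Atp6v1b2 agreed on design C, at 336 against 131 and 170 against 95.5. Its brightest set, on design A, was at 857 against 829, and dimmer sets were lower, at 14.4 against 54.1 and 29.7 against 145. The 2 subunits thus parted on design C only. Both calls were lost without that design and above the 70th percentile. Also lower were Prpf4, a splicing factor, Arnt, the partner of hypoxia-inducible factors, and Crebbp, a histone acetyltransferase that beta-catenin recruits. Crebbp had 96.2 against 205 on design A and 230 against 379 and 104 against 136 on design B, but 294 against 215 on a further B set. A dimmer Crebbp set on design B was also higher, at 158 against 58.3, and the gene was called in only 6 of 11 alternative settings. Bcl2l11 lay at the threshold, at 203 against 133 and 112 against 74.7, and lost its call under 3 of the scalings.

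The list of catenins and cadherins holds beta-catenin itself, its junction partners and other binding partners such as Ctnnbip1. It gave no agreed gene. Of 17 listed, 13 were eligible and 7 had at least 2 eligible probe sets, too few to read against the 2.02% and 2.42% of all such genes that agreed. A mean past 1.5-fold was found for 3 of the 13 (23.1%), beside 19.6% of all eligible genes. Ctnna1, alpha-catenin, was at 420 against 428. Plakoglobin (Jup), which can take the place of beta-catenin at junctions, was at 91.2 against 87.0 on design A and 171 against 120 on design C. Ctnnd1, p120-catenin, was at 162 against 131 and 874 against 792. On the eligible sets of Ctnna1, Jup and Ctnnd1 the differences were all below 1.5-fold. E-cadherin (Cdh1) was 2.12-fold higher, at 149 against 70.1, and P-cadherin (Cdh3) 1.74-fold higher, at 263 against 151, each on 1 eligible probe set of design A. The knockout pool, at 153 and 224, was also above the wild-type/floxed pool for both. N-cadherin (Cdh2), a mesodermal cadherin, was at 95.3 against 133. Ctnnal1, an alpha-catenin relative, was at 203 against 109 on design B, but its dimmer sets pointed down, to a mean of -0.53 with a filter at the 30th percentile. Ctnnbip1, which blocks the binding of beta-catenin to Tcf factors, was at 115 against 101 on design A and 312 against 533 on design B. Ctnnbl1 was at 503 against 736 and 206 against 257, and Pkp2, Pkp4 and Vcl, plakophilins and vinculin, were within 1.5-fold on each eligible set.

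Of the canonical Wnt targets, none of 14 eligible genes had a mean difference past 1.5-fold, beside 10% of all 8884 eligible genes that were higher and 9.59% that were lower. Their median was 0.02, beside -0.0027 over all genes, but it ran from -0.15 to 0.40 over the alternative settings, so its sign was not kept. The median signal of their probe sets was 317, above the 227 of all eligible probe sets. Axin2, the feedback inhibitor most often used as a readout of the pathway, was higher on design A, at 160 against 94.6, and lower on design B, at 292 against 436. Lef1 was at 460 against 615, 386 against 317 and 1058 against 800. Sp5 was at 994 against 706, Notum at 1068 against 1093, Dll1 at 499 against 475 and Tbx6 at 268 against 307. The knockout pool had 616 for Notum, 155 for Dll1 and 100 for Tbx6, below both of the others. Nkd1 had 373 against 141 on design C and 272 against 371 on design B, so its probe sets opposed each other. Among 49 eligible components of the pathway the median was 0.0030. Wnt4 (244 against 903, 1 set of design C) and Bcl9l (659 against 1177, 1 set of design B) were the only ones with a mean past 1.5-fold, both lower, and a dimmer Bcl9l set was at 233 against 35.0. Crebbp, described above, was the component that agreed. The ligands Wnt5a and Wnt5b had probe sets past 1.5-fold in both directions.

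Streak and Hox genes had the highest list medians, on few genes. The median was 0.32 over 17 eligible streak and nascent mesoderm genes and 0.47 over 9 Hox and posterior genes. Means past 1.5-fold were found for 2 of the 17 (11.8%) and 4 of the 9 (44.4%), beside 19.6% of all eligible genes. Both of the streak genes were higher, as were 3 of the Hox and posterior genes, with 1 lower. Snai1, a repressor of E-cadherin in the streak, was at 203 against 124, and Evx1, a posterior streak factor, at 150 against 97.5, each on 1 eligible probe set. Evx1 is in both lists, and its dimmer set pointed down, at 20.8 against 30.1. Mesp1, Eomes (98.7 against 67.5) and Lhx1 (177 against 134) were higher by less than 1.5-fold, while Tbx6 and Wnt3a (179 against 218) were lower. Pdgfra, a receptor of mesoderm, had 1 set at 257 against 477 and another at 96.4 against 88.7. Over the alternative settings the streak median ran from 0.08 to 0.35 and the Hox median from -0.19 to 0.71, so the sign of the latter was not kept. Meis1, a Hox cofactor, was at 327 against 134 on design C, and Hoxb6 at 71.6 against 109 and Hoxa4 at 554 against 552 on design A.

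Lists of other germ layers and extraembryonic tissues lay near 0. Visceral endoderm had a median of -0.14 over 37 eligible genes, with 3 past 1.5-fold higher and 2 lower, or 13.5% beside 19.6% of all eligible genes. Its brightest genes were almost equal, with Apoa1 at 6813 against 6545 on design A and 7336 against 6813 on design B, and Apoe at 9142 against 10236. The knockout pool had 12786 and 16067 for Apoa1. Fgg (123 against 70.2) and Apoc1 (148 against 93.9) were higher and the monocarboxylate carrier Slc16a1 (72.5 against 175) and cathepsin L, Ctsl, (827 against 1313) lower, each on 1 set. Over the alternative settings, 9 of the 36 lists kept the sign of their median, among them streak, visceral endoderm, trophoblast and primitive erythroid genes, and 27 did not. Neuroectoderm ran from -0.34 to 0.43 and epiblast from -0.13 to 0.25. The medians were 0.19 for epiblast, -0.19 for neuroectoderm, -0.10 for cardiac genes, -0.17 for parietal endoderm and basement membrane, -0.06 for trophoblast and -0.16 for primitive erythroid genes. In the epiblast list, Pou3f1, a POU factor, was at 127 against 70.4 and L1td1 at 442 against 284. In the neuroectoderm list, Cyp26a1, which degrades retinoic acid, was at 238 against 130, while Rax (95.4 against 157), Ncam1 (107 against 167) and Gbx2 (153 against 239) were lower. Of the cardiac and endothelial genes, 3 of 19 (15.8%) and 3 of 10 (30%) eligible were past 1.5-fold, all lower. Of all eligible genes, 19.6% were past 1.5-fold in either direction and 9.59% were lower. The cardiac and endothelial genes were Gata4, Gata6 (94.2 against 151), Tbx20 (295 against 452), Plvap (235 against 411), Sox18 (59.5 against 96.2) and Flt1 (94.2 against 250 on design B, with 62.3 against 72.6 on A and 107 against 151 on C). Both dimmer sets of Plvap and 1 of 2 of Sox18 pointed up, and means of Gata6 and Tbx20 reversed to 0.52 and 0.16 with a filter at the 30th percentile. Of 38 decidual and immune genes on the arrays, 8 were eligible, with a median of 0.12. A mean past 1.5-fold was found for 3 of the 8 (37.5%), 2 higher and 1 lower. Wnt4, lower at 244 against 903 on 1 eligible set, had the largest difference of the list. The macrophage gene Laptm5 was higher at 271 against 109 and Igfbp3 at 98.7 against 68.7 and 146 against 82.3.

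**Figure D5:**
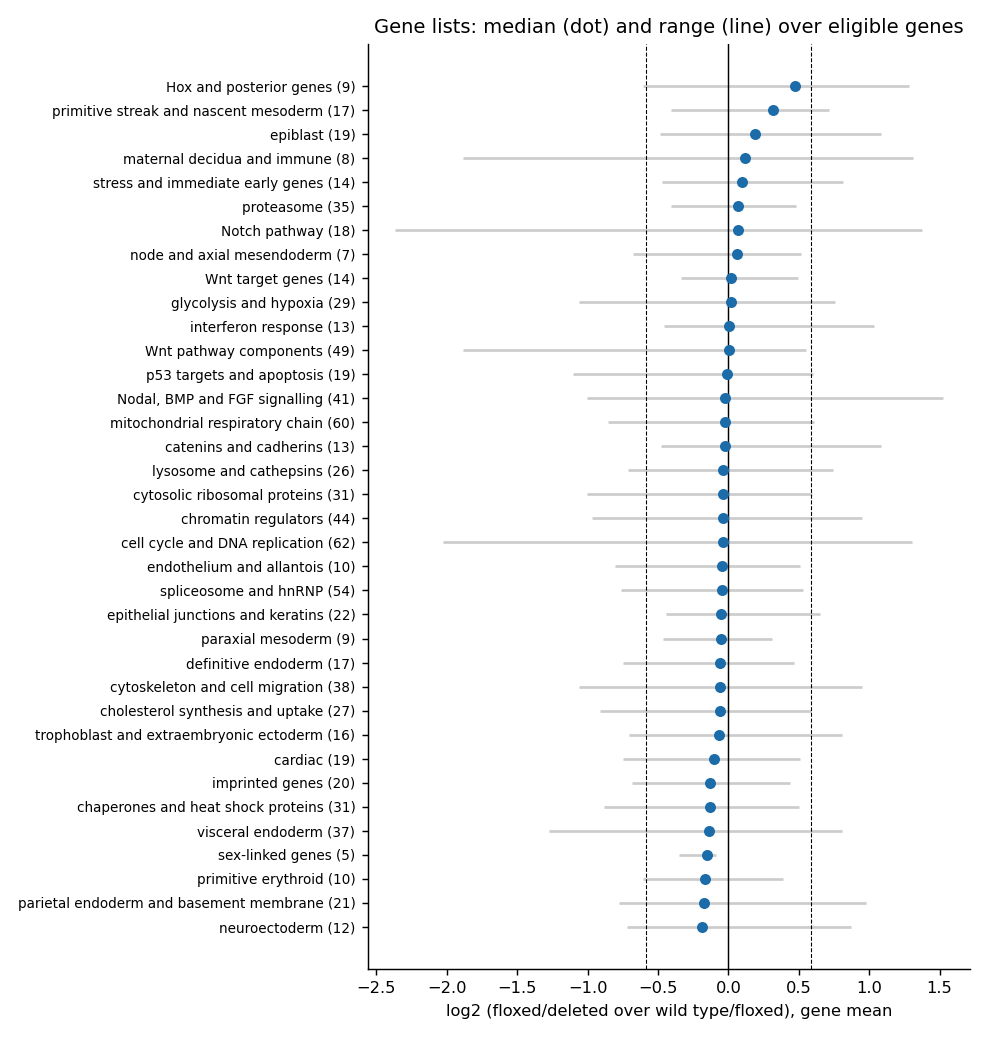
Median (dot) and range (line) of the log2 difference, floxed/deleted over wild type/floxed, over the eligible genes of 36 lists, with the number of genes in brackets; a gene's value is the mean of its eligible probe sets and dashed lines mark 1.5-fold. All medians lie within 1.5-fold, from -0.19 for neuroectoderm to 0.47 for Hox and posterior genes.

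Signalling and stress lists held single large differences with little support. In the Nodal, BMP and FGF list (median -0.02 over 41 genes), Acvr1, an activin and BMP receptor, was at 411 against 143 on design B but at 18.5 against 28.5 on its dimmer set. Cfc1, a Nodal co-receptor, was at 69.3 against 139. Spry4, an inhibitor of FGF signalling, was lower on both sets, at 96.1 against 141 and 180 against 422, the first short of 1.5-fold. In the Notch list (0.07 over 18), Hes5 was at 747 against 288 and Numbl at 96.8 against 499, each on 1 eligible set. In the cell cycle list (-0.04 over 62), Mcm6 was at 91.0 against 370 on design C while 2 dimmer sets pointed up, and Cdc45 was at 517 against 98.2 on C and 290 against 251 on A. In the apoptosis list, Mdm2 (130 against 270) and Xiap (92.3 against 199) were lower on 1 eligible set each, with dimmer sets that pointed up. Among chaperones (-0.13 over 31) Hsp90aa1 (3448 against 6377), Hspa5 (1594 against 2623) and Tcp1 (147 against 248) were lower, which is 9.68% of the list and close to the 9.59% of all eligible genes that were lower. Each was also below the knockout pool, at 4964, 2144 and 250. In glycolysis and hypoxia, the glucose transporter Slc2a1 was at 1457 against 2323 and adrenomedullin, Adm, at 109 against 228. Rpl41, a ribosomal protein, was higher at 27912 against 18469 and Rps27 lower at 143 against 287. No proteasome gene of 35 was past 1.5-fold, beside 19.6% of all eligible genes, and the median signal of the list's probe sets was 713, against 227 over all eligible probe sets.

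Lists of general cell functions had medians close to that of all genes, at -0.04 for ribosomal proteins, -0.02 for the respiratory chain, 0.07 for the proteasome, -0.05 for the spliceosome, -0.04 for chromatin regulators, -0.06 for cholesterol synthesis, -0.06 for cytoskeleton and migration and -0.04 for lysosomes. In the respiratory chain, Ndufc1 (428 against 609 and 100 against 231) and Ndufab1 (487 against 639 and 234 against 438) were lower on both eligible sets, the design A set of each within 1.5-fold, and Ndufa10 was higher at 116 against 76.2. In the spliceosome, Snrpa1 (103 against 174) and Hnrnpk (156 against 264) were lower. Of the remodelling ATPases and their partners, Smarca2 was higher at 578 against 300 on design C and Smarcc2 lower at 264 against 516 on design B. Rhob, a relative of Rhoa, was lower at 97.9 against 182, and the actin-binding Cald1 was lower at 108 against 227 on 1 set but reversed to 0.41 when its dimmer sets were admitted. The sterol enzyme Cyp51 was lower at 57.4 against 108, the first value just above the pooled median of 57.3. Its dimmer sets pointed both ways, at 28.9 against 67.9 on design B and 89.3 against 54.1 on design C. Hsd17b7 was higher at 641 against 427, with dimmer sets that also pointed both ways. The lysosomal membrane protein Lamp2 was higher at 116 against 73.4.

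Smaller lists gave single genes as well. Collagen IV chain Col4a2 was lower at 353 against 860 on design C and 677 against 817 on design A. Sparc, a matrix protein, was lower at 98.4 against 167. Of the 21 eligible genes in their list, parietal endoderm and basement membrane, 3 were past 1.5-fold higher and 2 lower. That is 23.8%, beside 19.6% of all eligible genes. The genes of that list that agreed, Plod1 and Itgb1, were both higher. Tfap2c, a trophoblast factor, was higher at 227 against 130, and Dand5, a Nodal antagonist of the node, lower at 208 against 333. Lyl1, a blood factor, was lower at 136 against 206. Its dimmer sets pointed both ways, at 65.9 against 12.3 and 12.5 against 41.0. The junction scaffold Tjp1 was higher at 436 against 277. Interferon factors Irf1 (152 against 74.1) and Irf3 (123 against 74.9) were higher, and the growth inhibitor Cdkn1c, an imprinted gene, was lower at 207 against 332. The stress genes Chac1 (177 against 101) and Asns were higher by their means, but the brightest Asns set was at 898 against 1119 and the other at 290 against 92.4, so its mean reversed to -0.32 when the latter was dropped. Orc1 was at 151 against 91.8, Rpa3 at 86.1 against 170, Maml1 at 373 against 147 and Adam10 at 133 against 66.6 and 89.1 against 75.5. Birc2 was at 65.6 against 114, but a dimmer set was at 54.3 against 4.50. The medians of the lists not yet given were -0.05 for paraxial mesoderm, -0.06 for definitive endoderm, 0.06 for the node, -0.04 for endothelium, -0.05 for epithelial junctions, -0.0080 for apoptosis, 0.02 for glycolysis, 0.10 for stress genes, 0.0055 for interferon, -0.15 for sex-linked and -0.13 for imprinted genes, and -0.02 for catenins and cadherins.

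Split genes show how far probe sets of 1 gene can part. Zfp787, a zinc-finger protein, had a design C set at 91.7 against 620 and another at 278 against 185. Dcun1d5, a factor of cullin neddylation, had C sets at 385 against 81.7 and 138 against 367. Gorasp2, a Golgi stacking protein, had 559 against 96.8 on one C set and 247 against 433 on another, with its brightest set level at 4677 against 4860. Brwd1 (320 against 188 and 88.5 against 398), Mex3c (632 against 164 and 170 against 373) and Nrg4 (275 against 125 and 113 against 456) did the same. All 6 have at least 1 of their opposed sets on design C.

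Genes beside Ctnnb1 on the chromosome were read for a shift around the targeted locus. Over the 10 nearest eligible genes on each side, the median log2 difference was -0.01. Of these 20 genes, 5 were past 1.5-fold, beside 19.6% of all eligible genes. Named after their values were seen, they were Slc25a38 at 1.23, Entpd3 at 1.09, Higd1a at 0.76, Nktr at -0.72 and Ano10 at -0.95, each on 1 eligible probe set, so neighbours lay on both sides of 0.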

How the data were processed

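Total RNA of embryo pools was read on 3 Affymetrix array designs, with 1 array per pool and design. The authors deposited 1 linear intensity per probe set. The sources used here do not give the probe summary, the scaling target or the labelling. Deposited trimmed means (without the lowest and highest 2%) were already 150.0 to 150.1, and arrays were scaled to equal trimmed means within a design (Python 3.11.15, numpy 2.4.6, pandas 2.3.3, statsmodels 0.14.6, matplotlib 3.10.9). Precision is limited by the number of arrays.

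Of 36899 probe sets, 29197 had 1 symbol in the platform annotation, 724 several and 6978 none. 29103 of the 29197 matched the gene table of GRCm38.p6. Of those with 1 symbol, 12308 lay above the pooled median of their design (over its 3 arrays) in both pools, covering 8884 genes. A gene's value is the mean log2 difference of its eligible probe sets. 2507 eligible probe sets carry a suffix marking shared or incomplete probe choice. No column lacked a sample (0). The agreement rule was tested on simulated data, with planted changes larger than every agreed difference here except that of Gstm1. The median agreed difference was 1.68-fold for genes higher and 1.63-fold for genes lower, and recovery at such sizes was not tested.

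Named are Ctnnb1 and Krt19, eligible catenins and cadherins, genes with 3 or more agreeing probe sets, the 15 largest agreed differences per direction, agreeing genes of 36 lists, up to 4 members per list past 1.5-fold, and the 6 widest splits. Other genes were named for context after their values were seen. Clone names were counted only. The comparison, rule and lists were chosen with earlier results of these data known. The alternatives changed the scaling, brightness filter, fold, suffixes, designs and agreement rule.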

Additional observations from a re-analysis of the deposited data

How the results depend on the processing

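Counts moved most with the brightness filter and the fold, and less with scaling. The main counts of 50 genes higher, 60 lower and 136 split became 191, 178 and 472 above the 30th percentile and 6, 13 and 19 above the 70th, and 128, 150 and 331 at 1.3-fold and 7, 3 and 23 at 2-fold. With equal medians they were 40, 76 and 127, a larger share of lower calls, and with the other scalings they stayed near the main counts. Without probe sets of shared suffix they were 24, 32 and 65. Without design A they were 31, 42 and 95, without design B 29, 29 and 55, and without design C 17, 23 and 49. Requiring every eligible probe set gave 26 and 27, and 2 designs gave 32 and 31. Of the 110 agreeing genes, 94 were called under all 4 other scalings and 16 were lost under at least 1, 16 were called above the 70th percentile, and 9 in every setting that could read them. Each of these 9 had its eligible probe sets on 1 design, so leaving out another design could not change its call. Equal medians moved the median of all probe sets by -0.07, the largest shift. Of the list medians, 43 moved by more than the standard error that the spread between probe sets gives and 353 did not, and 21 of the former were without design A. Means that changed sign were, above the 30th percentile, Bfar 0.054, Fgfr2 0.15, Gpr107 0.18, Hoxb4 -0.11, Strbp 0.19, Zdhhc6 0.0029, Zxdc 0.12, Ctnnal1 -0.53, Gata6 0.52, Tbx20 0.16 and Cald1 0.41. Above the 70th they were Akap1 0.31, Bclaf1 -0.20, Bfar 0.38, Mkrn1 -0.23, Nedd4 -0.21, Smim14 -0.54 and Asns -0.32. Asns was also -0.32 without shared suffixes and without design C. Without design B, Taok1 reversed to 0.47, and without design C Dact3 to 0.49, Gabpb1 to 0.24, Gpr107 to 0.15 and Polg to 0.17. Dropping probe sets or designs leaves fewer genes to agree, and the cause of the other changes was not tested. No paired analysis was possible because each pool had 1 array per design and the 3 designs hold different probe sets.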
